A study of Mus musculus with 3 samples.

Results

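The cells described here were picked from 3 mouse embryos by a gate on 10 genes, 4 of which mark progenitors of the second heart field. A barcode was a member when it held at least 1 molecule (unique molecular identifier, UMI) of Isl1, at least 1 of Tbx1, Fgf10 or Mef2c, and none of the other 6: Myl7 and Tnnt2 of the heart muscle sarcomere, the endoderm and axial gene Foxa2, the neural gene Sox2, the tail bud gene Cdx4 and the allantois gene Tbx4. The gate held 245 of the 22168 barcodes that passed quality control (QC). Embryo 1 gave 90 of 6129, embryo 2 gave 94 of 8116 and embryo 3 gave 61 of 7923, or 1.13% ± 0.350 of an embryo's barcodes (SD, n = 3). The counts of these 10 genes chose the members, so they are described and not tested.

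The study sequenced single cells of 3 wild-type embryos of the strain C57BL/6 x 129 SvEv, dissociated as whole embryos at embryonic day 8 after the extraembryonic tissue had been taken off, with a 3′ droplet library (10x Genomics, v3) for each embryo. The labels give the stage once as 0 to 1 somite and once as 0 to 2 somites. By genotype all 3 embryos were male. There was no treatment and no second genotype, so every comparison was between sets of cells of the same embryos. The purpose of the study was to find genes of the left-right organizer, which was not examined here.

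The second heart field is a population of mesodermal progenitors that lies behind and medial to the first cells of the heart tube. It feeds cells into the tube at both poles while the tube grows, and builds the outflow tract, the right ventricle and much of the atria. Isl1, a LIM homeobox transcription factor, is its best known marker. Tbx1 is a T-box factor of its anterior, pharyngeal part, Fgf10 is a growth factor ligand made there, and Mef2c is a MADS-box factor of myocyte differentiation. Progenitors stop dividing and switch on sarcomere genes as they join the tube, and retinoic acid from the neighbouring mesoderm sets the posterior limit of the field. On the GRCm38 assembly (mm10, GENCODE M21) Isl1 lies at chr13:116298281-116309689, Tbx1 at chr16:18580979-18590671, Fgf10 at chr13:118669791-118792115 and Mef2c at chr13:83504034-83667080.

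The 3 libraries held 195477519, 145760007 and 166042809 UMIs in QC barcodes, and the members of embryos 1, 2 and 3 held 2439034, 1509903 and 1027891 of them. A member had a median of 25707.5, 14027.5 and 15464 UMIs, against 26719, 14463.5 and 16242 in all other QC barcodes. Embryo 1 was thus the deepest, and members were about as deep as the other cells of their embryo. QC barcodes of different embryos had the same sequence in 20, 14 and 17 cases for embryos 1 and 2, 1 and 3, and 2 and 3. Of the members, 1 had a barcode that also passed QC in another embryo, and 0 were members in both.

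The gate kept a small and low part of the Isl1+ barcodes. At least 1 Isl1 UMI was found in 5490 QC barcodes (24.8%), and 2736 of those also had Tbx1, Fgf10 or Mef2c. Of these 2736, 1987 (72.6%) had Myl7, 943 had Sox2, 820 had Tnnt2, 719 had Cdx4, 333 had Foxa2 and 237 had Tbx4, so Myl7 removed more barcodes than any of the other 5 genes in each of the 3 embryos. Members were 4.46% of the Isl1+ barcodes. Isl1 stood at 1 UMI in 140 of the 245 members (57.1%), at 2 in 58 and at 3 or more in 47. Of the 543 barcodes with at least 5 Isl1 UMIs only 13 were members. Myl7 was found in 70.3%, 57.5% and 69.9% of those 543 in embryos 1, 2 and 3, and Nkx2-5, a homeobox factor of the heart fields, in 48.8%, 55.7% and 46.2%. The barcodes with the most Isl1 therefore lay mostly outside the gate.

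**Figure D1:**
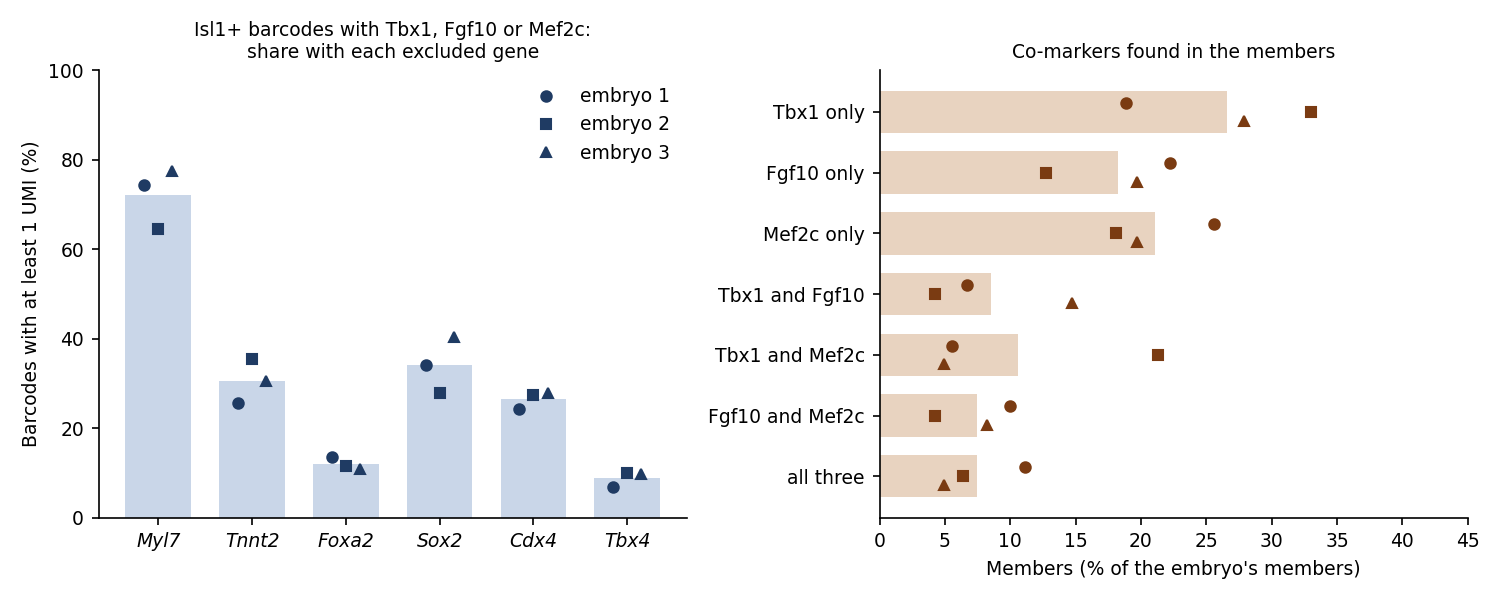
Left, the share (%) of Isl1+ barcodes with Tbx1, Fgf10 or Mef2c that held each of the 6 excluded genes. Right, the members (%) by the co-markers they carry. Bars are means of 3 embryos and points are embryos. Myl7 was found in 72.6% of the 2736 barcodes on the left when embryos were pooled, and 65 of the 245 members on the right carried Tbx1 alone.

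A single UMI decided the place of many barcodes. With every other condition met, 152 barcodes failed by a single Myl7 UMI, 34 by a single Sox2 UMI, 24 by Foxa2, 22 by Cdx4, 14 by Tnnt2 and 10 by Tbx4, and 370 had Isl1 and none of the 6 excluded genes but no co-marker. Nkx2-5 was found in 24.3% of the 152 barcodes with 1 Myl7 UMI. In visceral endoderm barcodes, set by at least 20 UMIs of Ttr and 5 of Apoa1, 6.33% of 2684 cells had an Isl1 UMI and 12.7% had a Myl7 UMI, a share taken here as background. These cells had median depths of 28374, 16554 and 16219.5 UMIs. One UMI of either gene is therefore weak evidence about a single cell.

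Genes the gate did not use gave a mixed picture of the label second heart field, which moved with the settings of the gate. Nkx2-5 was found in 10.0%, 24.5% and 13.1% of the members, against 2.76% of visceral endoderm barcodes pooled and 36.2% of 1836 pooled barcodes with both Myl7 and Tnnt2. After each cell was thinned to 5000 UMIs these shares were 9.09% in pooled members, 0.72% in visceral endoderm and 16.3% in Myl7+ Tnnt2+ barcodes. With the gate applied to the thinned cells 34 of 186 members had Nkx2-5, and with up to 2 UMIs of Myl7 and Tnnt2 allowed, a gate chosen after seeing the data, 130 of 539 had it. Its level was 6.56, 23.8 and 11.7 CPM (a gene's UMIs as a share of all UMIs of the set of cells in an embryo, scaled to a common total) in members of embryos 1, 2 and 3, and 6.90, 8.53 and 6.13 CPM in all other barcodes. Embryos 2 and 3 were higher in members, embryo 1 was not, and the groups overlapped (log2 fold change 0.88 ± 0.38 SE, adjusted p = 0.32). With the embryo as a block in limma-voom the adjusted p was 0.24. Fgf8, a ligand of the same field, had 23.8, 88.1 and 47.7 CPM in members against 34.7, 32.1 and 32.4 CPM, and again embryo 2 was highest and embryo 1 was below the other barcodes (adjusted p = 0.43, 0.51 with the limma-voom block). Without embryo 2 the log2 fold changes of Nkx2-5 and Fgf8 were 0.34 and -0.042, and without embryo 1 that of Fgf8 was 1.09 and passed (adjusted p = 0.017, edgeR). When the gate was applied to cells thinned to 5000 UMIs both passed, Nkx2-5 at 2.44 (adjusted p = 0.0009) and Fgf8 at 1.45 (0.0015), and with up to 2 UMIs of Myl7 and Tnnt2 allowed they stood at 1.79 (0.0067) and 0.90 (0.048). Both of these gates can admit barcodes that hold Myl7 or Tnnt2 UMIs. Tcf15 or Meox1, transcription factors of the somites and their precursors, were found in 138 of the 245 members and both in 75, and Nkx2-5 in 40. In visceral endoderm barcodes Tcf15 was found in 5.55% and Meox1 in 4.36%, against 41.2% and 45.7% of members. Of the 40 with Nkx2-5, 8 also had Tcf15 or Meox1. None of the 3 genes was found in 75 members. The set is therefore called here by its gate, as Isl1-gated members, and not by a cell type.

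The members were also described by which of the 3 co-markers they carried. Tbx1 alone was found in 65 members, Mef2c alone in 52, Fgf10 alone in 44 and 2 or 3 of them in 84. Nkx2-5 was found in 13.8% of members with Tbx1 alone, 15.4% with Mef2c alone, 27.4% with 2 or 3, and in 0 of 44 with Fgf10 alone, which allows a share of up to 6.82% of cells with an Nkx2-5 UMI and sets no limit on cells that express the gene. The Fgf10-only members had the highest shares of Cdx2, a caudal homeobox gene (68.2%, 138 CPM pooled), and of Hand1, a bHLH factor of lateral and extraembryonic mesoderm (54.5%, 112 CPM). Tbx1-only members had 16.9% and 23.3 CPM of Cdx2, and 18.5% and 19.9 CPM of Hand1. In visceral endoderm barcodes Cdx2 was found in 43.4% and Hand1 in 11.7%, and in 378 erythroid barcodes (median depths of 16731 and 21603.5 UMIs in embryos 2 and 3, with none in embryo 1) in 7.67% and 7.94%, so a Cdx2 share as low as that of the Tbx1-only members does not stand out from these other cell types. The same 44 cells also had the highest shares of the endothelial genes Egfl7 (61.4%, against 35.4% with Tbx1 alone), Etv2 (31.8% against 9.23%) and Kdr (29.5% against 23.1%) and of Acta2 (20.5% against 1.54%). With Mef2c alone the shares of Egfl7, Etv2 and Kdr were 53.8%, 23.1% and 19.2%. In embryo 1 the Fgf10-only members had 28.1, 21.5 and 33.0 CPM of these genes. That was below the 103, 36.5 and 73.0 CPM with Mef2c alone, while in embryos 2 and 3 the Fgf10-only levels were above those with Mef2c alone. Ttr in the Fgf10-only members stood at 159.6 CPM pooled and at 627 CPM in embryo 2, against 110.6 CPM pooled with Tbx1 alone, and the part of such cells was not tested. Aldh1a2, the enzyme that makes retinoic acid in trunk mesoderm, was found in 63.5% of Mef2c-only and 43.1% of Tbx1-only members, at 571 and 126 CPM. Foxc2, a forkhead factor of paraxial and cardiopharyngeal mesoderm, was found in 64.3% of members with 2 or 3 co-markers. These shares pool cells of 3 embryos and the sets were not tested against each other, but the split by Tbx1 was tested over embryos and is given further on.

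**Figure D2:**
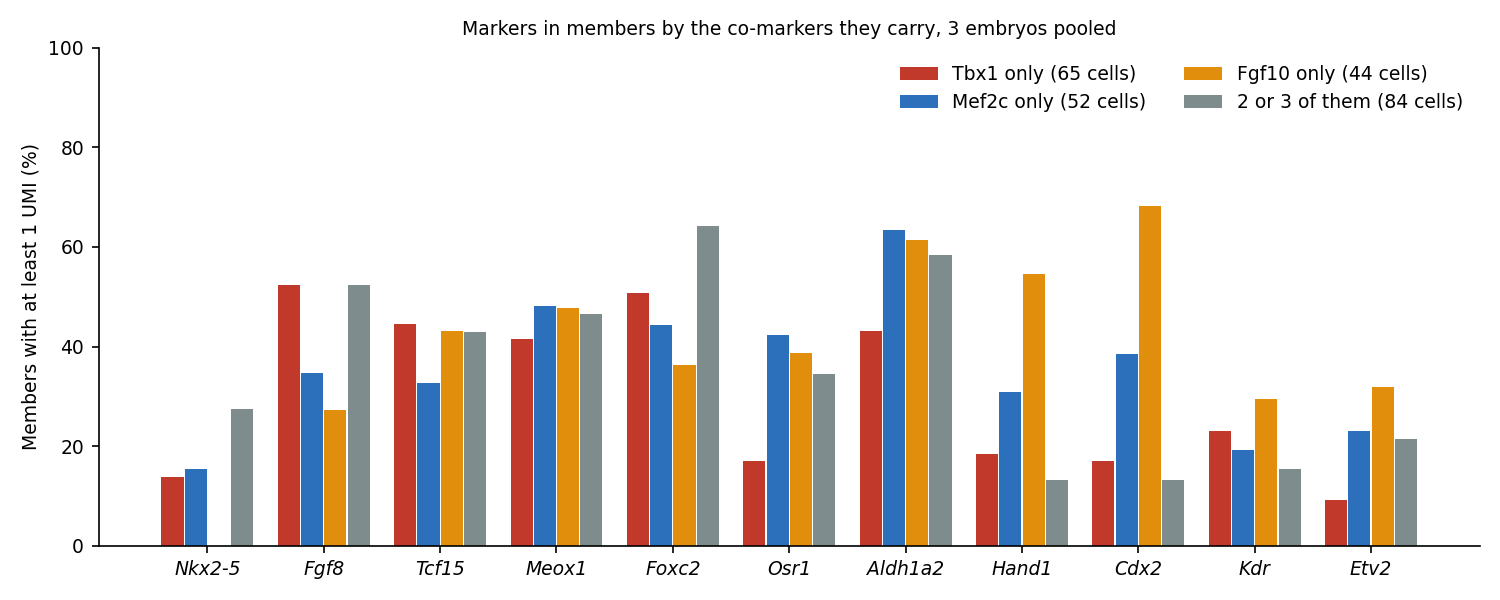
Share of members (%, y axis) with at least 1 UMI of each gene (x axis), by the co-markers the members carry, with the 3 embryos pooled. Fgf10-only members had no Nkx2-5 (0 of 44) and the highest share of Cdx2 (68.2%).

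Markers of other cell types were present in the members, and their part in the results below was not tested. All 245 members held UMIs of at least 3 genes of the 11 lists of other cell types and tissues, with a median of 10.5, 9.0 and 10.0 such genes in embryos 1, 2 and 3, against 14, 12 and 13 in all other barcodes. In embryo 2 the members held 7 visceral endoderm genes at a summed 729 CPM, against 31.6 and 80.7 CPM in embryos 1 and 3, with Rbp4 as the gene of the highest mean. Of the 303 Ttr UMIs in members of embryo 2, 271 were in the 5 highest cells. The erythroid list summed to 391 CPM in members of embryo 2, led by Hbb-bh1, and to 0 and 15.6 CPM in embryos 1 and 3, and 280 of the 306 Hbb-bh1 UMIs of embryo 2 were in 5 cells. Kdr or Etv2, genes of endothelial precursors, were found in 30, 11 and 31 members, and the endothelial list summed to 142, 199 and 364 CPM in members against 159, 178 and 210.3 CPM in all other barcodes. Levels of these 3 lists thus differed between embryos within the members. Sox10 and Tfap2b of the neural crest list were at 0 in members, as were Pax1 and Meox2 of the somite list. Against all other barcodes only 1 of 4 neural crest genes and 6 of 8 somite genes had counts enough to be tested. The levels of the genes at 0 outside the members are not given here, so no contrast is drawn from them.

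Which genes set the members apart from the rest of the embryo was tested on UMI sums per embryo, 3 against 3. Members were higher than all other QC barcodes in 3 of 6 somite genes, 3 of 15 retinoid genes, 3 of 19 other genes of the second heart field and pharyngeal mesoderm and 3 of 21 heart transcription factors, and lower in 7 of 8 neural plate genes and 5 of 11 endoderm genes. Foxc2 is on both the somite and the second heart field list and counts in each. The gate left out barcodes with Sox2 or Foxa2, and the other barcodes kept them. The direction of the neural plate and endoderm genes is therefore a description. Of 15418 genes tested with edgeR's quasi-likelihood test, 77 were higher and 153 lower at an adjusted p under 0.05, 1.49% of all genes (0.499% higher and 0.992% lower). With the embryo as a block the same test called 536 higher and 1081 lower (3.48% and 7.01%, 10.5% together), but that fit gave every gene the spread of the trend, whatever its own spread between embryos, and limma-voom with the same block called 372 (2.41%). Without the block, edgeR called 8 genes in all when embryo 3 was left out and 140 when embryo 2 was. Of 45 called genes followed across the settings, 4 passed without embryo 3, 29 without embryo 2, 36 in limma-voom with the block, 34 with at least 2 Isl1 UMIs in members, and 22 when all cells were thinned to 5000 UMIs and the gate was applied again. The median log2 fold change over all genes was -0.05, and numbers in parentheses after gene names are log2 fold changes unless named otherwise.

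Osr1, a zinc-finger factor of lateral and intermediate mesoderm that is also used in the posterior second heart field, had 36.1, 31.1 and 30.2 CPM in members and 8.44, 9.93 and 7.39 CPM in the other barcodes. The members of all 3 embryos lay above every value of the other barcodes (log2 fold change 1.91 ± 0.17 SE, adjusted p = 0.00092). Meis1, a TALE homeobox partner of Hox proteins, had 124, 97.4 and 102 CPM against 34.7, 25.6 and 27.7 CPM (log2 fold change 1.87 ± 0.14 SE, adjusted p = 0.00047). Gata6, a zinc-finger factor of cardiac mesoderm and endoderm, had 164, 134 and 131 CPM against 51.2, 44.8 and 51.3 CPM (log2 fold change 1.53 ± 0.11 SE, adjusted p = 0.00047). None of these groups overlapped, and for all 3 genes the lowest member value was more than 2 times the highest of the others. The share of all tested genes without overlap is not given, here or for the comparisons below. A lack of overlap is therefore a description of the values and no support beyond the test. Tcf21, a bHLH factor of pharyngeal mesoderm and epicardium, was low at 13.9, 11.3 and 9.73 CPM against 3.93, 2.23 and 2.89 CPM and was also higher in every embryo (log2 fold change 1.97 ± 0.30 SE, adjusted p = 0.012). Osr1 and Tcf21 did not pass without embryo 3 (adjusted p = 0.070 and 0.20) or with the gate on thinned cells (1.22 and 1.89, adjusted p = 0.22 and 0.26), and Meis1 and Gata6 passed in all 14 other settings tried.

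Among 19 tested genes of the second heart field and pharyngeal mesoderm outside the gate, 3 were higher (Tcf21, Foxc2 (1.74) and the transcriptional repressor Prdm1 (1.22)), 0 were lower, and 15 had a positive log2 fold change, with a median of 0.62. Those that did not pass included Six2 (1.91, adjusted p = 0.069), Foxc1 (1.00, 0.056) and Bmp4 (-0.22, 0.67). With the limma-voom block their adjusted p-values were 0.1, 0.034 and 0.56, so Foxc1 passed there. Both passed in DESeq2 (adjusted p = 0.0007 for Six2 and 0.0025 for Foxc1) and with up to 2 UMIs of Myl7 and Tnnt2 in members (0.0012 and 0.023), Six2 also in the thinned cells (2.94, 0.011) and Foxc1 without the top doublet scores (0.038), while Six2 stood at 1.09 without embryo 2. The calls of Prdm1 and, in the next list, Hoxb4 were lost in limma-voom with the block (adjusted p = 0.051 and 0.068). In the edgeR block fit, which gave each gene the spread of the trend, Six2, Foxc1, Nkx2-5, Fgf8, and Tbx5 and Hoxb1 of the next list passed. That fit called 10 genes higher and 2 lower in the second heart field list and 11 higher and 1 lower in the next list. Among the heart transcription factors it called 6 higher and 6 lower. In the list for the posterior field and the position along the axis, 3 of 18 were higher (Osr1, Meis1 and the nuclear receptor Nr2f2 (1.36)) and 1 was lower (Hoxb4 (-0.89)), with a median of 0.60. Nr2f2 did not pass in the thinned cells (adjusted p = 0.064, edgeR), with at least 2 Isl1 UMIs (0.12) or without embryo 3 (0.16). Tbx5 of the posterior pole had 6.56, 11.3 and 8.76 CPM against 3.86, 4.13 and 3.28 CPM and was higher in all 3 embryos, but its adjusted p was 0.07 (0.065 with the limma-voom block, 0.0025 in DESeq2). Hoxb1, which retinoic acid turns on in the posterior field, did not pass (adjusted p = 0.59, 0.16 with the limma-voom block), and its groups overlapped. Of 21 heart transcription factors, Hand2 (0.88), Gata6 and the chromatin remodelling subunit Smarcd3 (1.38) were higher and Hand1 (-1.11) was lower, with a median of 0.16.

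The somite and paraxial list gave the highest median among the lists of other tissues, 1.49 over 6 tested genes, with 3 higher (Tcf15, Meox1 and Foxc2) and 0 lower. Only 4 of the 6 had a positive log2 fold change. Tcf15 had 112, 117 and 88.5 CPM in members and 38.3, 39.0 and 31.4 CPM in the others (log2 fold change 1.54 ± 0.13 SE, adjusted p = 0.00076). Meox1 had 168, 77.5 and 91.4 CPM against 44.3, 30.7 and 26.6 CPM (log2 fold change 1.75 ± 0.27 SE, adjusted p = 0.014). Every member value was above every other value for both genes, and embryo 1 was far above embryos 2 and 3 in Meox1. These calls did not hold in every setting. With all cells thinned to 5000 UMIs and the gate applied again, which changed both the members and the counts, the log2 fold changes of Tcf15, Meox1 and Foxc2 were 0.39, 0.64 and 0.83 and none passed (adjusted p = 0.58, 0.53 and 0.38, edgeR). With at least 2 Isl1 UMIs Tcf15 fell to 0.52 (adjusted p = 0.56), and without embryo 3 Meox1 and Foxc2 did not pass (adjusted p = 0.20 and 0.11). Aldh1a2 had 489.9, 182 and 217 CPM against 156, 88.7 and 85.1 CPM with the same excess in embryo 1, and missed the threshold (adjusted p = 0.076, 0.018 with the limma-voom block). Without embryo 1 it stood at 1.16 and passed (adjusted p = 0.00048, edgeR). It also passed with no filter on low counts (1.42, adjusted p = 0.011, edgeR) and in the edgeR block fit. In the thinned cells its log2 fold change was -0.12. The summed somite list stood at 863, 449 and 450.4 CPM in members and at 273, 184 and 167 CPM in the others, with Aldh1a2 as its most abundant gene. The earlier, presomitic list had 0 of 7 higher and 1 lower (brachyury, T), with a median of 0.00.

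Signalling genes moved in parts. Of 15 tested retinoid genes, 3 were higher: Crabp1, which binds retinoic acid in the cytosol (553, 354 and 431 CPM against 209.8, 171 and 191 CPM, 1.21), the retinol dehydrogenase Rdh10 (1.16) and the retinal reductase Dhrs3 (1.07). Crabp2 (-1.59) was lower. In the BMP list 4 of 24 were higher, namely the antagonists Grem1 (2.11) and Fst (0.90), the ligand Bmp5 (0.89) and the target Id2 (0.60), and the targets Msx1 (-0.73) and Msx2 (-1.10) were lower. The Wnt antagonist Sfrp5 (1.72) was higher and the ligands Wnt8a (-2.04) and Wnt5b (-1.22) of the primitive streak and tail were lower, out of 28. In the FGF list 1 of 21 passed, the target Etv4 (-1.33), which was lower, and 0 of 13 Hedgehog genes passed, with medians of -0.32 and 0.11. Several of these calls were lost elsewhere. In the thinned cells Fst stood at 0.34 (adjusted p = 0.53, edgeR) and Msx2 at -0.30 (0.79), and Rdh10, Dhrs3, Grem1, Bmp5, Wnt8a and Wnt5b did not pass, and with at least 2 Isl1 UMIs Fst was at 0.21 (0.68). In limma-voom with the block Bmp5, Msx1, Msx2, Dhrs3 and Wnt5b missed the threshold (adjusted p = 0.081, 0.066, 0.073, 0.051 and 0.095). Of 27 cell cycle genes only the inhibitor Cdkn1a (-1.28) passed, and it was lower, but it stood at -0.14 in the thinned cells (adjusted p = 0.95) and missed the threshold with at least 2 Isl1 UMIs (0.079) and in limma-voom with the block (0.053). The summed cell cycle list stood at 4911, 4331 and 4348 CPM in members against 4683, 4228 and 4256 CPM.

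Outside the lists, the largest increases among genes with at least 20 CPM in members were those of the BH3-only gene Bik (27.1, 19.2 and 20.4 CPM against 5.36, 4.69 and 5.45 CPM, log2 fold change 2.11 ± 0.19 SE, adjusted p = 0.00092), the paired-related homeobox gene Prrx2 (1.79) of mesenchyme, Igfbpl1 (1.71), the aristaless-like gene Alx1 (1.65), the LIM homeobox gene Lhx1 (1.60), Dach1 (1.45), the apelin receptor Aplnr (1.44), the heparan sulfate sulfotransferase Hs3st3b1 (1.44), the Slit receptor Robo2 (1.40) and Rcsd1 (1.32). In the thinned cells Lhx1 stood at 0.26 (adjusted p = 0.80) and Dach1 at 0.52 (0.64), and Rcsd1 was lost in limma-voom with the block (0.069). The largest decreases included the kinase Pim2 (-3.88), Eras (-2.54) of early embryonic cells and the trunk Hox gene Hoxb8 (-2.76), and in the thinned cells none of these 3 passed (Pim2 -1.31, Eras -1.05 and Hoxb8 -2.20, adjusted p = 0.30, 0.34 and 0.071). Of the neural plate list 7 of 8 were lower and of the endoderm list 5 of 11, with medians of -2.53 and -0.83. Among those were the epithelial adhesion gene Epcam (-1.39) and Spink1 (-2.40). The gate asked for cells without Sox2, Foxa2, Cdx4 and Tbx4, and the part of that choice in these decreases was not tested. The one sarcomere gene of 31 that passed, Rbm24 (1.33), encodes an RNA-binding protein that acts on the splicing of sarcomere transcripts. The list as a whole leaned the other way, with a median of -0.57 and 6 of 31 genes positive. With the embryo as a block in edgeR 3 of them were higher and 7 lower.

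**Figure D3:**
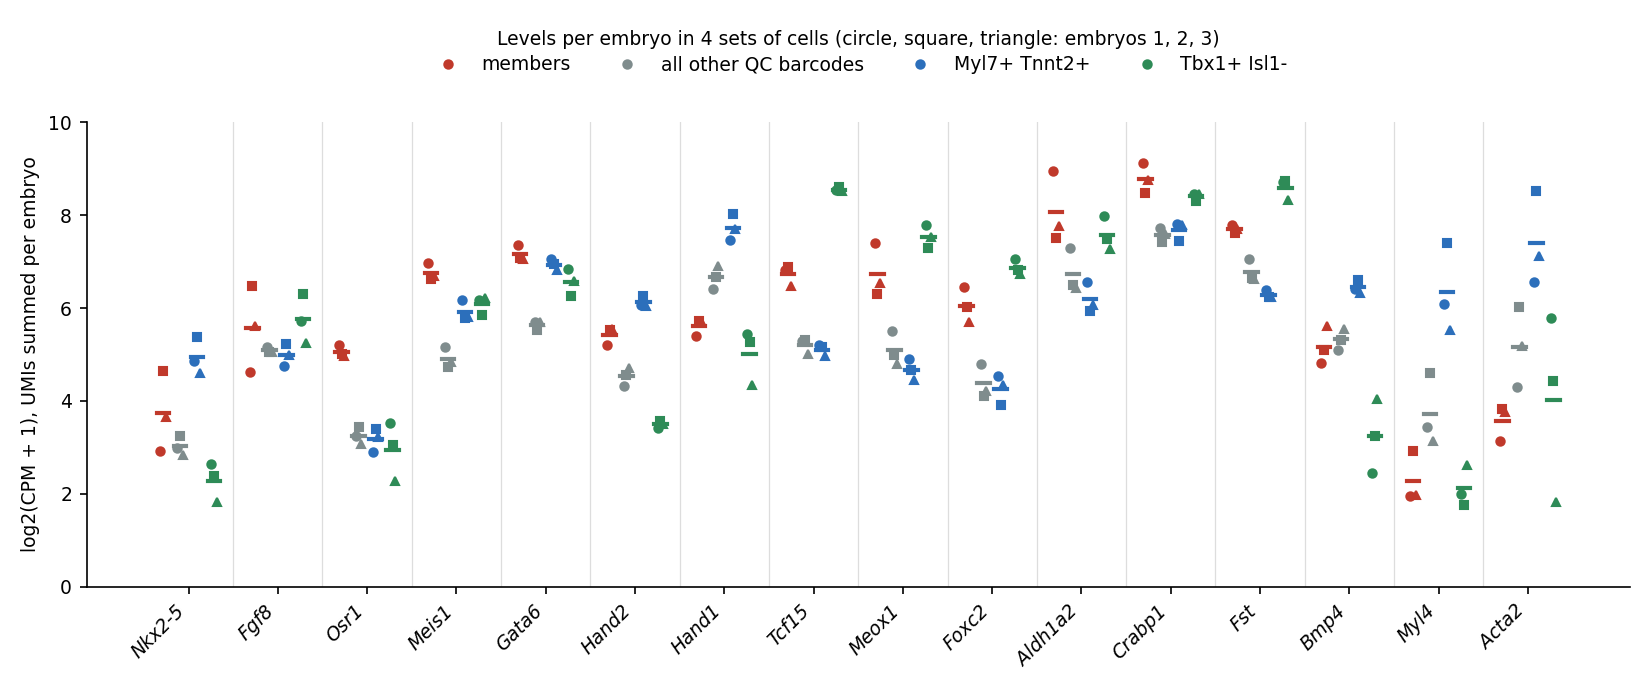
Level, as log2(CPM + 1) on the y axis, of 16 genes in 4 sets of cells. Each point is an embryo and the short line is the mean of 3 embryos. Tcf15 in members (88.5 to 117 CPM) lay between all other barcodes (31.4 to 39.0 CPM) and Tbx1+ Isl1- cells (365 to 387 CPM).

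A second comparison set the members against barcodes with sarcomere transcripts, the 525, 684 and 627 barcodes with at least 1 UMI of both Myl7 and Tnnt2. These cells were deeper, with medians of 35203, 19786 and 28051 UMIs. The members were lower in 11 of 26 sarcomere genes, 6 of 8 neural plate genes, 7 of 21 heart transcription factors, 6 of 23 BMP genes and the keratins Krt8 (-1.21) and Krt18 (-1.11), and higher in 4 of 6 somite genes and 6 of 13 retinoid genes, with Aldh1a2 counted in both. Of 12060 genes, 112 were higher and 317 lower (0.929% and 2.63% of all genes, 3.56% together), and with the embryo as a block 478 and 733 (3.96% and 6.08%, 10.0% together). Without the block, edgeR called 151 genes when embryo 1 was left out and 98 when embryo 3 was. Of 73 called genes followed across the settings, 31 passed without embryo 3, 42 without embryo 1, 54 without embryo 2 and 73 in limma-voom with the block. In the thinned cells 57 of them had a value and 42 kept their call. With at least 2 Isl1 UMIs in members 58 of the 73 kept theirs. The lost calls included Tcf15, Foxc1, Hand2, Dhrs3, Grem1, Hoxa2, Irx3, Bmp2, Bmp5, Ccnd2, Csrp3, Hcn4 and Smad7. Only 1 UMI of Myl7 and of Tnnt2 was asked for in the comparison set, and one with at least 5 UMIs of each gave 715 genes.

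Of 26 tested sarcomere and myocyte genes, 11 were lower and 0 higher in members, with a median of -2.46 (0.01 over all genes), and 22 were lower with the block. Since the gate excluded Myl7 and Tnnt2 and the comparison set required them, this direction was set by the choice of cells. Myl4, the embryonic myosin light chain, had 2.87, 6.62 and 2.92 CPM in members and 67.2, 168 and 45.1 CPM in Myl7+ Tnnt2+ cells (log2 fold change -4.55 ± 0.69 SE, adjusted p = 0.005). Acta2, an actin that early heart muscle uses, had 7.79, 13.2 and 12.6 CPM against 93.5, 367 and 138 CPM (log2 fold change -4.26 ± 0.61 SE, adjusted p = 0.0037). Embryo 2 was highest on both sides for each gene, and the groups did not overlap. The sarcomere and Z-disc genes Nebl (-4.31), Nexn (-2.71), Csrp3 (-5.47), Tnnc1 (-3.85) and Tnni1 (-2.14), the calcium channel Ryr2 (-3.21) and the pacemaker channel Hcn4 (-2.28) were lower too.

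Of 21 heart transcription factors 7 were lower and 0 higher. The 2 sets were chosen by the absence and presence of Myl7 and Tnnt2, and the part of that choice in this direction was not tested. Hand1 had 41.4, 51.7 and 51.6 CPM in members and 175, 260.2 and 208 CPM in Myl7+ Tnnt2+ cells (log2 fold change -2.20 ± 0.17 SE, adjusted p = 0.00017), and no member value came near the lowest of the others. The coactivator Myocd (-4.29), Tbx20 (-2.58), Gata5 (-1.94), Tbx5 (-1.43), Hand2 (-0.76) and Tead1 (-0.66) were the other 6. Gata6 did not pass and had 164, 134 and 131 CPM against 132, 122 and 111 CPM (log2 fold change 0.23, adjusted p = 0.31). It was higher in members in each embryo and its adjusted p was 0.035 with the limma-voom block, but its sign turned when the gate was applied to thinned cells (-0.45) and with 5 UMIs of Myl7 and Tnnt2 (-0.29). In the BMP list 6 of 23 were lower, the ligands Bmp4 (-1.35), Bmp2 (-1.11) and Bmp5 (-0.93), the targets Msx1 (-0.96) and Msx2 (-1.70) and the inhibitory Smad7 (-0.60), and the antagonists Grem1 (2.07) and Fst (1.41) were higher. Of 19 FGF genes the receptors Fgfr2 (-1.24) and Fgfr3 (-1.34) were lower and the inhibitor Spred1 (0.48) was higher. Of 17 second heart field and pharyngeal genes Foxc1 (1.11), Foxc2 and Prdm1 (1.47) were higher, and Bmp4 was among the 2 that were lower. The inhibitor of division Cdkn1c (-1.47) and the cyclins Ccnd3 (-0.56) and Ccnd2 (-0.43) were lower, and Ccne1 (0.48) and Cdc20 (0.53) were higher, out of 27 cell cycle genes.

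Higher in members were 6 of 13 retinoid genes, and Crabp2 (-0.98) was lower, with the opposite sign in the thinned cells (0.15). Aldh1a2 had 489.9, 182 and 217 CPM in members and 93.6, 60.6 and 66.0 CPM in Myl7+ Tnnt2+ cells (log2 fold change 2.03 ± 0.31 SE, adjusted p = 0.0048), with embryo 1 far above the others. The other 5 were Rdh10 (1.5), the retinol transporter Stra6 (1.35), Dhrs3 (1.27), the receptor and target Rarb (1.16) and Crabp1 (1.11). Osr1 had 36.1, 31.1 and 30.2 CPM against 6.53, 9.48 and 8.33 CPM (log2 fold change 2.00 ± 0.19 SE, adjusted p = 0.00039). Meis1 (0.84), Meis2 (0.71), Hoxa2 (1.25) and Aldh1a2 were also higher in the axial list of 18, in which 4 genes were lower (Hoxb4 (-1.0), Hoxd1 (-1.19), Wnt2 (-1.26) and Tbx5). Meis1 and Hoxb4 lost their calls with at least 5 UMIs of Myl7 and Tnnt2, in the thinned cells and without embryo 3, and Hoxb4 also without embryo 2. The lowest log2 fold change of Meis1 over the settings was 0.32. Of 6 somite genes 4 were higher: Meox1 (2.21), Aldh1a2, Foxc2 (1.88) and Tcf15 (1.65). These 4 were the only ones of the 6 with a positive log2 fold change. Tcf15 did not pass with at least 2 Isl1 UMIs in members (adjusted p = 0.35, edgeR), and its lowest log2 fold change over the settings was 0.67. Outside the lists large increases were those of Bik (2.39), Lhx1 (1.75) and the protocadherin Pcdh19 (1.70), and large decreases those of Tmem108 (-3.44), Pmp22 (-2.73) and Stard8 (-2.42). The allantois genes Tdo2 (-3.69), Tagln (-2.97) and Ahnak (-2.47) were higher in the Myl7+ Tnnt2+ cells, whose summed allantois list stood at 237, 444 and 300.3 CPM against 35.3, 81.5 and 69.1 CPM in members, and the part of other mesoderm in that set was not tested. The comparison set was not asked to lack Sox2, Foxa2, Cdx4 or Tbx4 as members were, and its neural plate list had 6 genes above members, Hesx1 (-3.08), Six3 (-2.82), Sox3 (-2.22), Pou3f1 (-1.82), Nkx1-2 (-1.59) and Otx2 (-1.44), with Irx3 (0.90) higher in members and a median of -1.92. In the thinned cells Otx2 was higher in members (0.78). That list summed to 93.9, 156 and 142 CPM in members and 180, 162 and 195 CPM in the comparison set, led by Irx3 in both. All 9 endothelial genes had a positive log2 fold change and 1, Esam (1.83), passed, with a median of 0.68, and the list summed to 142, 199 and 364 CPM against 158, 137 and 168 CPM, led by Egfl7. All 4 tested erythroid genes had a positive log2 fold change, with a median of 1.40 and 0 called (2 higher with the block). Of 7 visceral endoderm genes 0 had a positive log2 fold change, with a median of -0.78 and 0 called (4 lower with the block). The part of neural, endothelial, erythroid and visceral endoderm cells was not tested.

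**Figure D4:**
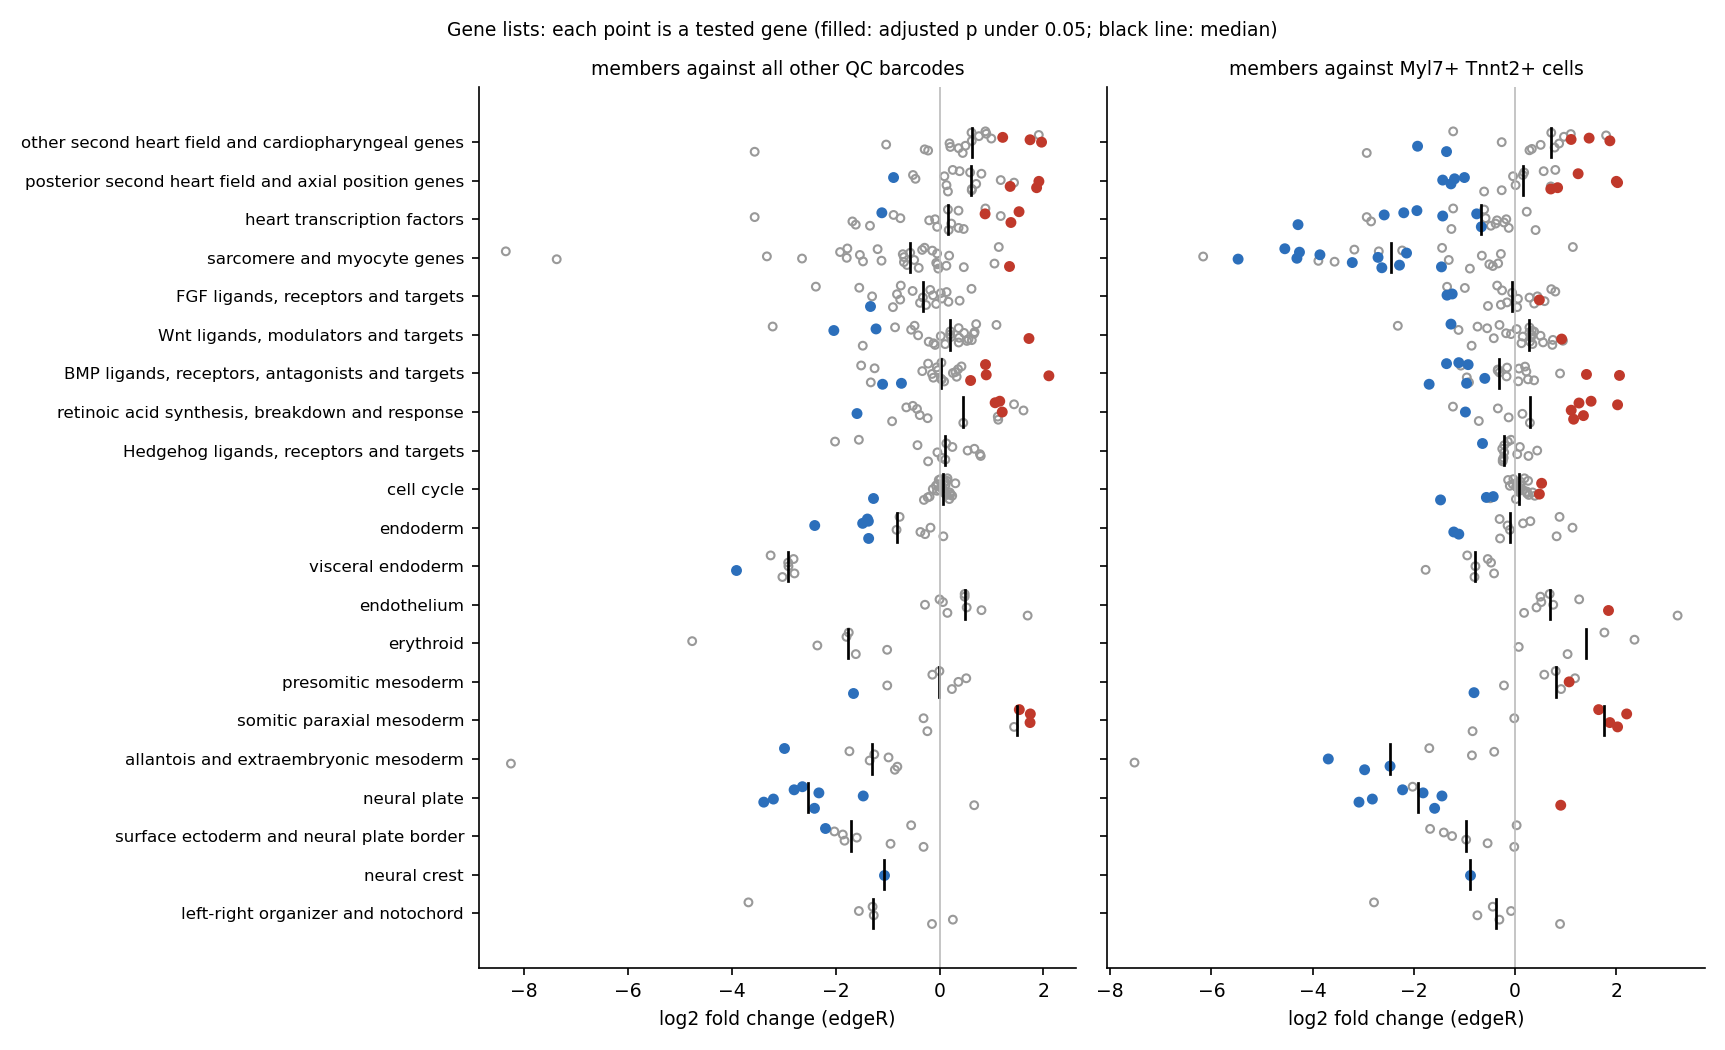
log2 fold change (x axis) of each tested gene in each list (y axis). Left, members against all other QC barcodes, and right, members against Myl7+ Tnnt2+ cells. Filled points passed an adjusted p of 0.05 and black lines are medians. The sarcomere median was -2.46 on the right, and the somite medians were 1.49 and 1.76.

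The members were also set against the 224 barcodes (54, 118 and 52) with Tbx1, without Isl1 and without the 6 excluded genes. Members were higher in 4 of 16 BMP genes and 2 of 12 heart transcription factors, and lower in 2 of 5 somite genes. Of 8455 genes, 17 were higher and 17 lower (0.201% each, 0.402% together), and 59 and 53 with the block (0.698% and 0.627%, 1.32% together). Without the block there were 4 when embryo 3 was left out and 57 when embryo 2 was. Of 25 called genes followed across the settings, 4 passed without embryo 3, 20 without embryo 2 and 25 in limma-voom with the block. In the thinned cells 21 of them had a value and 13 kept their call. With at least 2 Isl1 UMIs in the members the test called 99 genes, and with at least 2 Tbx1 UMIs in the comparison set 103.

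Hand2 had 35.7, 45 and 45.7 CPM in members and 9.71, 10.9 and 10.3 CPM in Tbx1+ Isl1- cells (log2 fold change 1.98 ± 0.23 SE, adjusted p = 0.00077). Osr1 had 36.1, 31.1 and 30.2 CPM against 10.5, 7.24 and 3.85 CPM (log2 fold change 2.08 ± 0.27 SE, adjusted p = 0.002), and Bmp4 27.1, 33.1 and 47.7 CPM against 4.48, 8.45 and 15.4 CPM (log2 fold change 1.98 ± 0.35 SE, adjusted p = 0.019). In all 3 genes each embryo was higher in members and the groups did not overlap. Gata5 (2.52), the noncanonical ligand Wnt5a (1.32), Rbm24 (1.24) and the BMP targets Msx1 (1.29), Id2 (1.06) and Id3 (1.01) were higher as well, so 4 of 16 tested BMP genes rose, and Fst (-0.92) fell. Outside the lists, the carboxypeptidase Cpm (3.13), Lhx1 (1.58) and the semaphorin and VEGF coreceptor Nrp1 (1.3) were higher. Tcf15 went the other way, with 112, 117 and 88.5 CPM in members and 371, 387 and 365 CPM in Tbx1+ Isl1- cells (log2 fold change -1.82 ± 0.11 SE, adjusted p = 8.9e-07). The spread between embryos was small in both sets. Pax3 (-2.26), a paired box gene of somites and the neural plate border, the secreted antagonist Cer1 (-1.92), Igfbp5 (-1.74), Col23a1 (-1.36) and the enzyme that breaks down retinoic acid, Cyp26a1 (-1.0), were lower. The 2 sets share no cells, and both were asked to lack the same 6 genes. Every cell of the comparison set had Tbx1 and 131 of the 245 members did, so the sets differed in Tbx1 as well as in Isl1. With only the Tbx1+ members on one side, a setting added after seeing the data, edgeR called 7 genes higher and 3 lower, and 8 of the 23 followed genes with a value kept their call: Hand2 (1.92), Id2 (1.39), Id3 (0.94), Rbm24 (1.41) and Cpm (3.67), which were higher, and Tcf15 (-1.23), Pax3 (-1.79) and Ppp1r1a (-1.23), which were lower. Bmp4 (1.17, adjusted p = 0.51), Msx1 (0.22, 1.0), Fst (-0.38, 0.43), Igfbp5 (-0.86, 0.38) and Col23a1 (-0.73, 0.25) were among those that did not pass, and Osr1 and Gata5 had no value. Tcf15, Fst, Igfbp5 and Col23a1, lower in members, were also higher in Tbx1+ than in Tbx1- members (1.41, 1.32, 3.1 and 1.55). Lists of other cell types moved with the comparison too, and their part was not tested. The endoderm list summed to 724, 1166 and 1069 CPM in members against 719, 536 and 656 CPM, led by Krt18, with 0 of 11 tested genes called (3 higher with the block, median 0.66). The endothelial list summed to 142, 199 and 364 CPM against 114, 173 and 98.8 CPM, led by Egfl7 and by Etv2, with 0 of 6 called (2 higher with the block, median 0.81). The visceral endoderm list summed to 31.6, 729 and 80.7 CPM against 344, 570.1 and 624 CPM, led by Rbp4, with 0 of 7 called and a median of -0.89. The erythroid list summed to 0, 391 and 15.6 CPM against 2.24, 806 and 74.4 CPM, led by Hbb-bh1, with 0 of 2 called (2 lower with the block, median -1.26).

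Within the members, 131 with Tbx1 (38, 61 and 32) were compared with 114 without (52, 33 and 29), which by the gate carried Fgf10 or Mef2c. Of 6771 genes, 23 were higher and 33 lower in the Tbx1+ members (0.34% and 0.487%, 0.827% together), and 45 and 89 with the embryo as a block (0.665% and 1.31%, 1.98% together). Without the block, leaving out embryo 1 gave 10 genes, embryo 2 gave 16 and embryo 3 gave 0 (336 at an unadjusted p under 0.05 with the same edgeR test). DESeq2 called 30 genes with all embryos. Of 26 called genes followed across the settings, limma-voom with the block kept 26 and DESeq2 11 of the 23 with a value, and in the thinned cells 10 had a value and 1 kept its call.

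Tbx1+ members had more Tcf15 (193, 144 and 134 CPM against 59.9, 73.5 and 46.8 CPM in Tbx1- members, log2 fold change 1.41 ± 0.19 SE, adjusted p = 0.0017). Their Fst stood at 341, 266 and 293 CPM against 144, 82.0 and 127 CPM (log2 fold change 1.32 ± 0.16 SE, adjusted p = 0.00093), and Irx3 and Irx5, Iroquois homeobox genes, at log2 fold changes of 1.80 and 1.81. No group overlapped in these 4 genes. Igfbp5 (3.1), Prdm1 (1.78), Bmp7 (1.56), the Wnt receptor Fzd2 (0.74) and the Wnt antagonist Sfrp1 (1.29) were also higher. In the thinned cells Fzd2 had the opposite sign (-0.025), and Igfbp5, Bmp7, Fzd2 and Irx3 did not pass in DESeq2. Tbx1- members had more Aldh1a2 (689.5, 318 and 287 CPM against 179, 96.3 and 142 CPM, log2 fold change -1.67 ± 0.27 SE, adjusted p = 0.0063) and more Hand1 (66.7, 104 and 74.9 CPM against 2.10, 18.4 and 26.3 CPM, log2 fold change -2.51 ± 0.40 SE, adjusted p = 0.006). In both genes the Tbx1- value was the higher in each embryo. The Notch ligand Dll1 (-2.30) of presomitic mesoderm, Cdx2 (-2.22), the Wnt effector Lef1 (-1.27) and Msx1 (-1.61) were lower in Tbx1+ members too. Of the lower genes, Aldh1a2, Hand1, Lef1 and Msx1 did not pass in DESeq2. Markers of other cell types moved with this split, and their part in it was not tested. The endothelial list summed to 59.8, 197 and 168 CPM in Tbx1+ and to 195, 203 and 545 CPM in Tbx1- members, led by Egfl7 in both, and of 5 tested genes 0 passed (3 lower with the block, median -1.06). The allantois list summed to 14.7, 41.1 and 24.3 CPM against 48.5, 145 and 111 CPM, led by Tagln and by Ahnak, and of 3 tested genes Ahnak was lower (median -1.84). The visceral endoderm list summed to 36.7, 466 and 66.8 CPM against 28.3, 1145 and 93.7 CPM, led by Ttr and by Apoa1, with 0 of 3 tested genes called (3 lower with the block, median -0.81).

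The 40 members with Nkx2-5 (9, 23 and 8) were compared with the 205 without (81, 71 and 53). Nkx2-5 is not one of the 10 genes of the gate. The sums on the Nkx2-5+ side were shallow, at 181226, 323789 and 104860 UMIs. Of 6247 genes, 18 were higher and 13 lower (0.288% and 0.208%, 0.496% together), and 34 each way with the block (0.544% each, 1.09% together). Without the block there were 6 genes when embryo 3 was left out and 18 when embryo 2 was. When all cells were thinned to 5000 UMIs and the gate was applied again, 34 of 186 members had Nkx2-5 (13, 13 and 8) and edgeR called 0 genes (114 at an unadjusted p under 0.05). Of 26 called genes followed across the settings, 6 passed without embryo 3, 12 without embryo 1 and 24 in limma-voom with the block, and in the thinned cells 13 had a value.

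Rbm24 had 215, 148 and 191 CPM in Nkx2-5+ members and 48.7, 32.0 and 46.6 CPM in Nkx2-5- members (log2 fold change 2.07 ± 0.23 SE, adjusted p = 0.00043). Hand2 had 171, 120.4 and 57.2 CPM against 24.8, 24.4 and 44.4 CPM (log2 fold change 2.06 ± 0.31 SE, adjusted p = 0.0037). Both were higher in each embryo and did not overlap. Gata4, a partner of Nkx2-5 on heart promoters, had 71.7, 46.3 and 28.6 CPM against 17.3, 8.43 and 9.75 CPM (log2 fold change 1.98 ± 0.40 SE, adjusted p = 0.029), from 31 UMIs in all on the Nkx2-5+ side. The tropomyosin Tpm1 (0.90), Bmp5 (2.12), the BMP targets Id2 (1.14) and Id1 (0.72), the inhibitor Cdkn1c (1.02) and Aplnr (1.36), Igfbpl1 (2.07) and Mpped2 (1.80) were higher too. Meox1 had 5.52, 9.27 and 9.54 CPM in Nkx2-5+ members and 181, 96.1 and 101 CPM in the others (log2 fold change -3.94 ± 0.51 SE, adjusted p = 0.00078), and Tcf15 0, 24.7 and 0 CPM against 121, 142 and 98.6 CPM (log2 fold change -3.20 ± 0.47 SE, adjusted p = 0.0031), with 0 UMIs in embryos 1 and 3. The size of this Tcf15 fold is therefore not exact, and it ran from -9.60 to -2.71 over the 11 other settings with a value. Aldh1a2 had 38.6, 83.4 and 9.54 CPM against 526, 209 and 241 CPM (log2 fold change -2.56 ± 0.44 SE, adjusted p = 0.011). Cdx1 (-4.04), Cdx2 (-3.48), Pcdh19 (-3.21), the Wnt agonist Rspo3 (-2.82), Hand1 (-2.67) and Msx1 (-2.30) were lower as well. The sizes of some of these changes depended on the setting. Over the 13 other settings Hand2 ran from 0.25 to 2.51, Aldh1a2 from -3.81 to -0.96 and Rspo3 from -4.47 to -0.55. Cdx2 had a value in 11 and ran from -8.88 to -2.84. A Tcf15 or Meox1 UMI was found in 8 of the 40 Nkx2-5+ members and in 130 of the 205 others. Of 4 tested somite genes 3 were lower and 0 higher. The visceral endoderm list summed to 22.1, 108.1 and 38.1 CPM in Nkx2-5+ and 32.3, 899 and 85.6 CPM in Nkx2-5- members, led by Rbp4 and by Ttr, with 0 of 2 tested genes called (2 lower with the block, median -1.97). The allantois list summed to 16.6, 0 and 19.1 CPM against 36.8, 103.7 and 74.8 CPM, led by Tagln and by Ahnak, with 0 of 1 called (1 lower with the block, -3.05), and 6 of its 8 genes were at 0 in the Nkx2-5+ members. The part of these cells in the split was not tested.

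**Figure D5:**
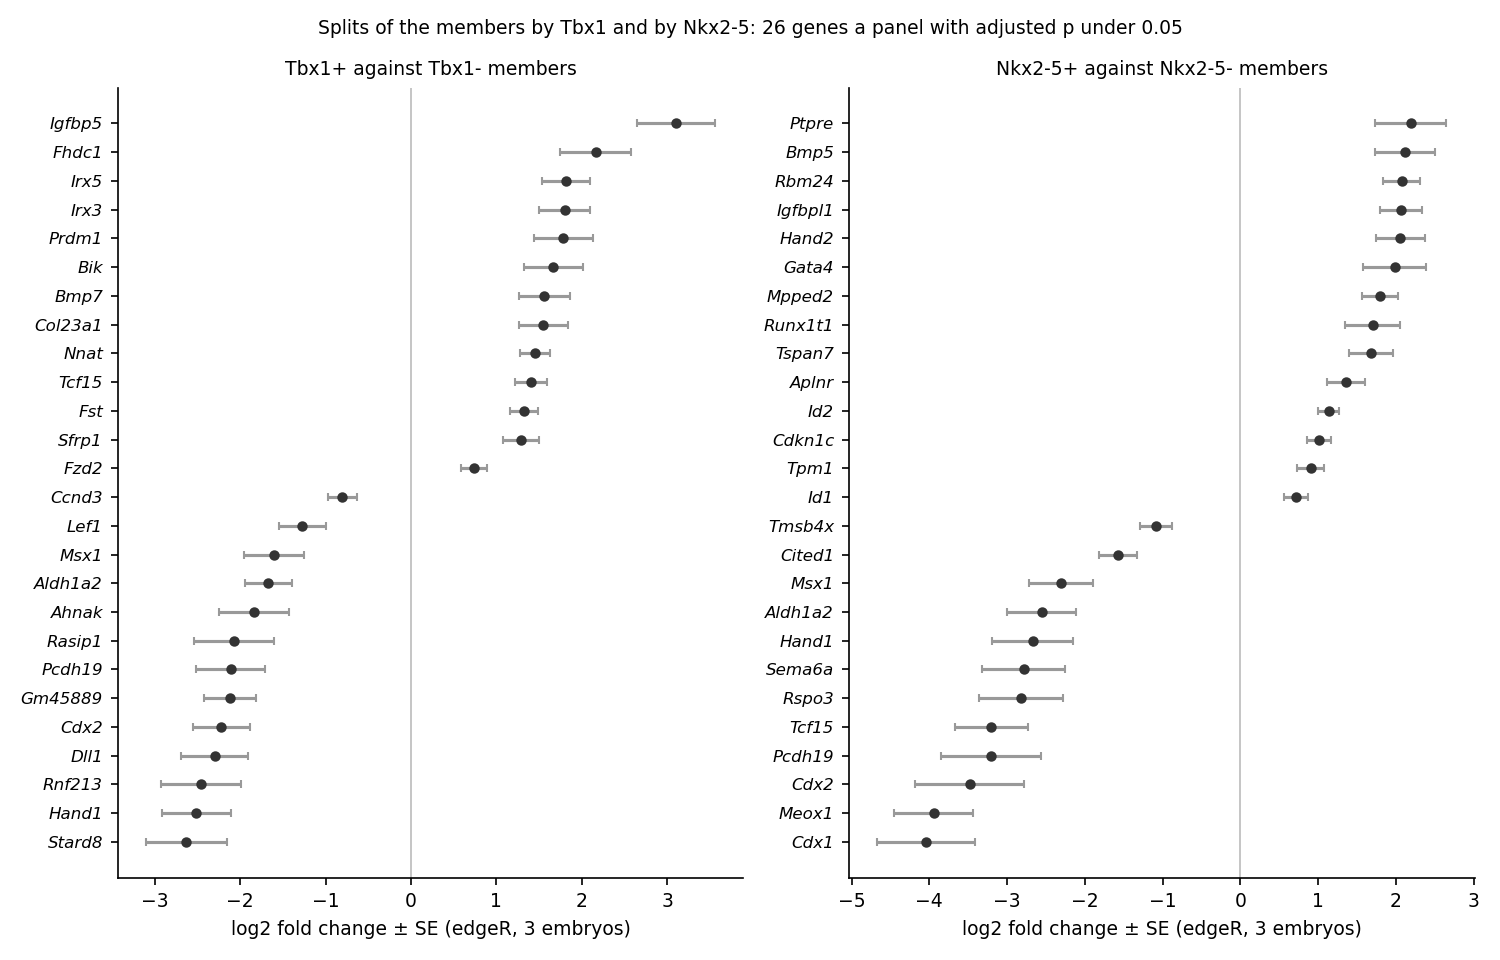
log2 fold change ± SE (x axis; edgeR, 3 embryos) of 26 genes a panel with adjusted p under 0.05. Left, Tbx1+ against Tbx1- members, and right, Nkx2-5+ against Nkx2-5- members. Tcf15 was higher with Tbx1 (1.41) and lower with Nkx2-5 (-3.20), while Aldh1a2 was lower in both (-1.67 and -2.56). On the Nkx2-5+ side Tcf15 had UMIs in embryo 2 alone, and its fold there ran from -9.60 to -2.71 over the other settings.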

How the data were processed

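Per the labels, Cell Ranger 3.1.0 and mm10 were used, and the authors deposited raw UMI counts of 31054 features for 6579, 8621 and 8333 barcodes. Here barcodes with 1500 to 8500 genes (7500 in embryo 2) and at most 10% mitochondrial UMIs were kept. A Scrublet score (scanpy 1.11.5) was computed, but its own threshold called 2, 210 and 6 doublets, so doublets were kept and the top 6% of scores left out as an alternative. The study also removed clusters it took for doublets or empty droplets, and those barcodes remain in the sets here. Counts were summed per embryo and set of cells and tested with edgeR 4.0.16 (TMM, filterByExpr, quasi-likelihood, Benjamini-Hochberg over all genes tested), leaving out the 10 gate genes. DESeq2 1.42.0 and limma-voom 3.58.1 were alternatives. SE is the log2 fold change over the square root of F. P-values rest on sums of 3 embryos, with the spread of each gene drawn toward that of other genes. The main edgeR test and DESeq2 did not pair the sums of an embryo.

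Both sides of each comparison came from the same embryos, so their numbers pair. The correlation of same-embryo deviations was 0.470 to 0.630 for members against all others, 0.410 to 0.612, 0.186 to 0.378 and 0.0773 to 0.292 for the next 3 comparisons and 0.0430 to 0.0547 for the Nkx2-5 split, so fits with the embryo as a block stand beside the other counts. The edgeR block fit of members against all others estimated infinite prior degrees of freedom (6.04 without the block), so limma-voom with the block (3.77) was added after seeing the data. On simulated data 97.2% of genes changed by 2 on the log2 scale and 44.1% of those changed by 1 were recovered for members against all others (15517 genes). The shares were 92.4% and 40% against Myl7+ Tnnt2+ cells (12095 genes), 91.8% and 42.2% against Tbx1+ Isl1- cells (8395), 81.1% and 31.4% for the Tbx1 split (6794) and 95.2% and 27.1% for the Nkx2-5 split (6339). False calls numbered 5, 8, 7, 4 and 7 in the same order. The simulation gave every gene the same dispersion and embryos no effect of their own, and changed only genes with enough expected counts. These shares are therefore not the power of the tests on the real data.

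The members and gene lists were chosen with earlier results of these data known. Named genes were all list genes and, outside the lists, those with an adjusted p under 0.05, one sign in every embryo and at least 20 CPM in the higher set, by size of change. Some genes that the rule names are not reported here. Shares with 95% intervals cover counting error only: 1.47% (exact interval 1.18 to 1.80), 1.16% (0.937 to 1.42) and 0.770% (0.589 to 0.988) of barcodes were members.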

Additional observations from a re-analysis of the deposited data

Results flagged for a closer look

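EGFP, a feature the reference added to the mouse genome, was outside every comparison. It had 28 UMIs in QC barcodes of embryo 1, 0 in embryo 2 and 31 in embryo 3, although all 3 embryos are labelled wild type, and 0 UMIs in the 245 members.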

How the results depend on the processing

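Across members against all others, against Myl7+ Tnnt2+ cells, against Tbx1+ Isl1- cells, and the splits by Tbx1 and Nkx2-5, the counts of genes (230, 429, 34, 56 and 31) kept within 1.5 times under library-size or DESeq2 scaling in edgeR, without barcodes under 0.5% mitochondrial UMIs and without the top 6% of doublet scores. They rose to 1617, 1211, 112, 134 and 68 with the replicate block in edgeR, to 372, 1289, 126, 146 and 58 with the replicate block in limma-voom (added after seeing the data), and to 482, 873, 154, 159 and 100 with no filter on low counts. DESeq2 called 609 and 30 genes in the first comparison and the Tbx1 split. With all cells thinned to 5000 UMIs and the gate applied again, which gave 186 members, the counts were 90, 247, 43 and 5, and 0 in the Nkx2-5 split (edgeR, 114 at an unadjusted p under 0.05). With Isl1 at 2 or more UMIs (105 members, 0.488% of barcodes) they were 99, 4 and 14 in the last 3. A stricter comparison set gave 715 (5 UMIs of Myl7 and Tnnt2) and 103 (2 of Tbx1). Chosen after seeing the data, up to 2 UMIs of Myl7 and Tnnt2 in members gave 539 members (2.49%) and 902 genes, and Tbx1+ members alone against Tbx1+ Isl1- cells gave 10 genes. Leaving out 1 embryo gave 8 to 334, 98 to 303, 4 to 57, 0 to 16 and 6 to 26 genes, and 0.964% to 1.31% for the share; the 0 was without embryo 3 in the Tbx1 split (336 at an unadjusted p under 0.05). The cause was not tested. Of 204 gene results, the sign turned with thinning for Aldh1a2 (-0.12) and Hoxb1 (-0.40) against all others, Crabp2 (0.15), Otx2 (0.78) and Gata6 (-0.45) against Myl7+ Tnnt2+ cells and Fzd2 in the Tbx1 split (-0.025). It also turned for Gata6 with 5 UMIs of Myl7 and Tnnt2 (-0.29) and Fgf8 without embryo 2 (-0.042, in a range of -0.042 to 1.09 when 1 embryo was left out). With thinning 65 called genes no longer passed, 3 passed that had not, 81 stayed on their side of the threshold, and the genes beyond these and the 6 that turned had no value. Leaving out members with at least 3 genes of other cell types left 0 members and no value.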
